A study of Bos taurus with 2 samples.

Results

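The genes described here are those whose name on the bovine array is CEP, IFT, BBS or TTC followed by a digit, which makes 82 of the 32429 gene names that the array carries. They comprised 26 CEP, 11 IFT, 7 BBS and 38 TTC genes, and were read by 176 probes on 189 spots. The choice was by name and used no measured value. The 2 groups were crossbred bulls, that is Holstein Friesian crossbreds carrying 50 to 75% exotic inheritance, and Zebu bulls of the Tharparkar breed, all adult and 24 months old. The tissue was the right testis. In each group, RNA of 3 bulls was pooled in equal quantity, labelled with Cy3 and hybridized to 1 array, so that each group is 1 measurement, the spread between bulls is not seen and no p-value is given.

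Centrosomal (CEP) proteins build the centrioles and the material around them, and the mother centriole becomes the basal body from which a cilium or a sperm tail grows. Intraflagellar transport (IFT) trains carry tubulin and other axonemal cargo along the growing axoneme, IFT-B on the way to the tip and IFT-A on the way back, while the BBSome couples membrane proteins to these trains. TTC genes are named after the tetratricopeptide repeat, a protein-binding fold. Some TTC proteins are train subunits or parts of dynein arm assembly, and others have no known part in the cilium. In the testis, round spermatids assemble a flagellum each, and the transport proteins are removed once it is complete.

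Every level below is the log2 of the processed signal minus the 75th percentile of its array, which was a signal of 1042 on the crossbred array and of 1092 on the Zebu array, and differences are on this log2 scale as well, with Zebu subtracted from crossbred. Each gene was represented by whichever of its probes was brightest on average, and levels of different genes were not compared. A gene was counted as higher or lower where the difference was at least 1.5 in size, which is 2.83-fold, and where the scanner software marked the brighter array as well above background. The only error that the arrays give is the spread between spots of a probe, with an SD of 0.33 for a difference over 5960 probes. It covers spotting and scanning only, and was uneven. The SD was 0.29 on the crossbred array, where 22 probes had spots more than 3 apart. On the Zebu array it was 0.18, with 1 such probe. Each of the 5 genes past the threshold was read from 1 spot per array, which can stray further than this SD. Both arrays lay on 1 slide, and 72.0% of the spots of the crossbred array and 74.3% of those of the Zebu array were well above background.

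The probes on which the results turn are shown here, because 4 of the 5 genes past the threshold rested on 1 probe and because probes of the same gene did not always give like differences. The first 4 are the only probes under the names TTC7A, TTC39B, CEP57 and TTC12. They lie at chr11:30661904-30672919 (plus strand), chr8:30897295-30897354 (plus), chr15:12584260-12584319 (minus) and chr15:22194991-22195822 (plus). TTC12 fell short of the threshold, and the single probe of IFT43, which passed it, is not shown. The probes of TTC7A and TTC12 cover 11016 and 832 bases of the genome with 60 bases of sequence and so lie across introns. Positions are those of the scanner files, whose header names the build Btau_3.1 while descriptions of other spots on the array name Btau_4.0, so the build of the positions could not be settled.
TTC7A: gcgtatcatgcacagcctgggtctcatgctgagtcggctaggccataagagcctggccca
TTC39B: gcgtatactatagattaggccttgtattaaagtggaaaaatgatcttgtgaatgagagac
CEP57: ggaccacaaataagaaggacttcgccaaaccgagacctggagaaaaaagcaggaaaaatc
TTC12: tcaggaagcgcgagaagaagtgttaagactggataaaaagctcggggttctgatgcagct

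The next pairs are probes of 1 gene that gave unlike differences. For each gene the probe that was read comes first and the probe past the threshold second. The TTC38 pair lies at chr5:123487084-123487143 and chr5:123486187-123486246 (plus), the CEP112 pair at chr19:64262626-64272043 and chr19:64185058-64217450 (minus), and the TTC29 pair at chr17:12388091-12388150 and chr17:12269418-12269477 (plus).
TTC38 read: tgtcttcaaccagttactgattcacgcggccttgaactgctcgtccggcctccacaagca
TTC38 other: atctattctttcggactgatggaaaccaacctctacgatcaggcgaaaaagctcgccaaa
CEP112 read: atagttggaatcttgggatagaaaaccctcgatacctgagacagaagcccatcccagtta
CEP112 other: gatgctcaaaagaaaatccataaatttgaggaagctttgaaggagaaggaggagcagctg
TTC29 read: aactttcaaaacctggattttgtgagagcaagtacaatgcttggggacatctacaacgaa
TTC29 other: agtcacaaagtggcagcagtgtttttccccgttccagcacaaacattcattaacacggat

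The last set shows neighbouring probes that share bases. A pair of TTC17 probes overlapped by 44 bases, in capitals below, and their differences were 0.74 and 0.82.
TTC17 first: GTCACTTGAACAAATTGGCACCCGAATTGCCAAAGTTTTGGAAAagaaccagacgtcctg
TTC17 second: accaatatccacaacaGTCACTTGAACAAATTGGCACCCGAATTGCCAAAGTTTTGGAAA

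As a whole the 82 genes lay above the other names of the array, though few of them by much. Of the members, 79 were well above background on both arrays, TTC6 on the crossbred array alone, TTC22 on the Zebu array alone and TTC34 on neither. Among the 79, 56 had a difference above 0 and 23 a difference below 0, and the median was 0.33, with quartiles of -0.21 and 0.77 and a range from -1.02 to 2.76. Over the other 22763 names measured on both arrays the median was -0.04, and 47.6% of the differences were above 0 against 70.9% of the members. A difference of 1 or more was found for 16 members, or 20.3%, against 12.0% of the other names, and a difference of -1 or less for 2 members, or 2.53%, against 7.12%. In bulk tissue such as this, fewer cells of a type and less RNA per cell cannot be told apart.

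Of the 81 members detected on at least 1 array, 5 were higher in crossbred testis, or 6.17%, where 7.11% of all 24751 detected names were higher. None was lower, where 2.92% of all names were. At a mean level of 0 or above, 4 of 52 members were higher and 0 lower, against 618 and 80 of 9714 other names. Both shares of the members were therefore near those of the array. Their distance from the other names lay in the middle of the range, as a description of these arrays. It was seen in bright and in dim members, with a median of 0.43 for the 52 members whose mean level was 0 or above and of 0.17 for the 27 measured below it, against -0.05 and -0.04 for the other names.

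**Figure D1:**
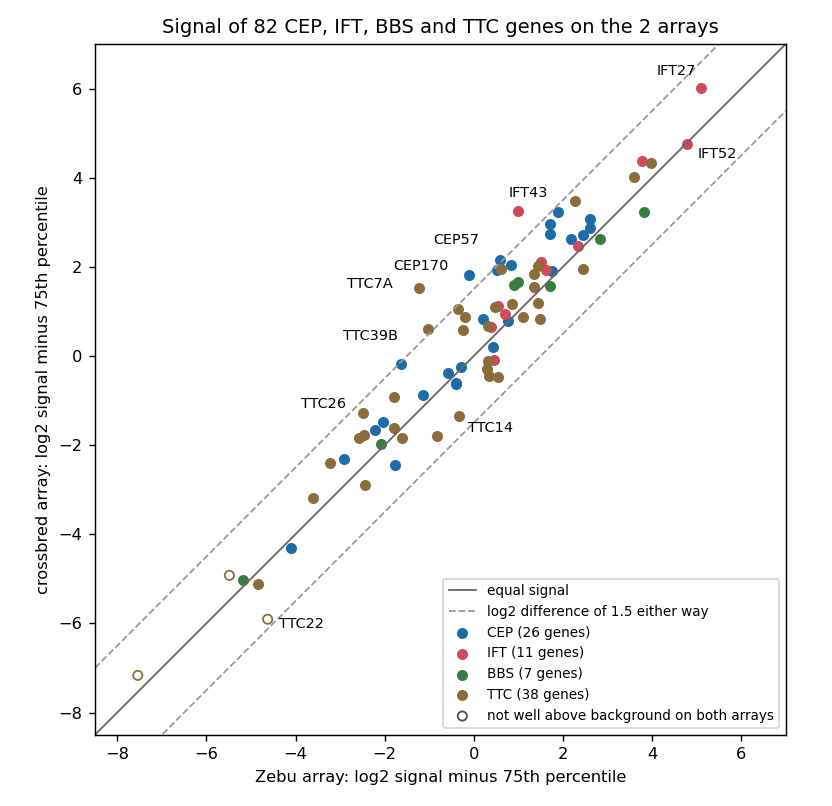
Level of each of the 82 genes on the Zebu array (horizontal axis) and on the crossbred array (vertical axis), as log2 signal minus the 75th percentile of the array, coloured by name family and with open circles for the 3 genes not well above background on both arrays. The 5 genes above the upper dashed line, at a log2 difference of 1.5, are TTC7A, IFT43, CEP170, TTC39B and CEP57, and no gene lies below the lower one.

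**Figure D2:**
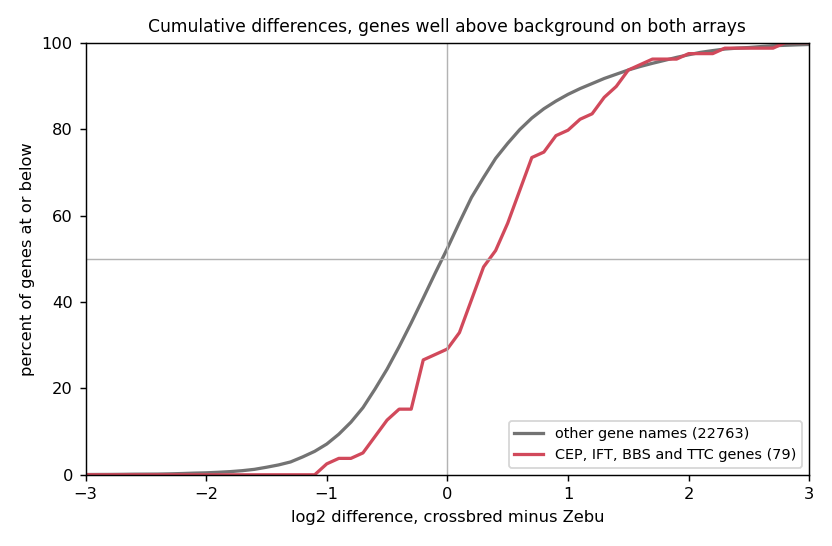
Percent of genes (vertical axis) at or below each log2 difference, crossbred minus Zebu (horizontal axis), for the 79 members and the 22763 other names well above background on both arrays. The line of the members runs to the right of the other line through the middle of the range, with medians of 0.33 and -0.04, and the lines meet near a difference of 1.5.

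The IFT-A complex, which runs with the dynein motor back from the tip of the axoneme, held the largest difference among the transport genes. IFT43, a peripheral subunit of IFT-A, had a level of 3.26 in crossbred and of 0.98 in Zebu testis, a difference of 2.28, or 4.85-fold. Its reading came from 1 spot of 1 probe at chr10:89961584-89961643 (plus strand). IFT122, a core subunit of the same complex, had 4.37 and 3.78, a difference of 0.59, and its 5 probes ranged from 0.12 to 0.59. TTC21B, also known as IFT139, had 1.19 and 1.43, a difference of -0.25. The 3 IFT-A genes among the members thus did not share 1 difference, with IFT43 far from the 2 others, and had a median of 0.59. Train subunits that the array carries under other names are left out of this and of the next group and are described further below.

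Of the 12 IFT-B genes among the members, which form the trains that run outward, none passed the threshold. A difference above 0 was found for 10 of them, and the median was 0.28. TTC26, known as IFT56, differed most, with -1.28 in crossbred and -2.48 in Zebu testis, a difference of 1.20 from 1 probe. IFT27, a small GTPase of the complex, had 6.005 and 5.09, a difference of 0.91, also from 1 probe. These 2 genes stood above the others of the group, and neither has another probe against which to set them.

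IFT74 and IFT81, which together bind tubulin, gave like values. IFT74 had 1.11 and 0.55, a difference of 0.57, with 0.52 at its other probe. IFT81 had 2.11 and 1.51, a difference of 0.59, and its 3 probes ranged from 0.58 to 1.04. All 5 probes of this pair were thus above 0.

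TTC30A and TTC30B, the IFT70 genes, had differences of 0.62 (1.09 in crossbred and 0.47 in Zebu testis) and 0.18 (1.54 and 1.36). IFT20, which also shuttles between the Golgi apparatus and the cilium, had 1.93 and 1.62, a difference of 0.31. IFT57 had 0.64 and 0.38, a difference of 0.26. IFT88, a core subunit needed for sperm tail formation in mice, had 0.95 and 0.69, a difference of 0.25. The last 4 values lie within the spread of 0.33 between spots.

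At the low end, IFT52, another core subunit, had 4.75 in crossbred and 4.78 in Zebu testis, which differ by -0.03, and its 3 probes ranged from -0.03 to 0.03. IFT46, a cargo adaptor for outer dynein arms, had -0.09 and 0.46, a difference of -0.54, with -0.04 at its other probe. The probes of IFT52 thus gave nearly the same value, and the value of IFT46 rested on the brighter of 2 unlike probes.

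IFT80 had 2.46 and 2.34, a difference of 0.11, but this reading is uncertain. The probe read for IFT80 matched 16 probes under 10 other names over at least 30 bases at 90% identity or more, 10 of them on the opposite strand, and these 16 had differences from -0.40 to 0.25 with a median of -0.13. In all, 4 of the 8 IFT80 probes, those at the start of the transcript, had such matches. The other 4 gave 0.27, 0.05, -0.46 and -0.25, so IFT80 lay near 0 on both kinds of probe. Across the members, 7 probes of 4 genes had a match of this kind, and none of the 5 genes past the threshold was among them.

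The BBSome genes sat lower than the trains. BBS2, a core subunit, had 3.22 in crossbred and 3.82 in Zebu testis, a difference of -0.60. Its spot, in row 52 and column 37, lies just above a dark patch of the crossbred array, which begins at row 54. Of its 18 nearest spots 16 were measured, with a median of -0.13, and the part of its place in the value was not tested. BBS4, which binds the centriolar satellite protein PCM1, had 2.63 and 2.84, a difference of -0.22, and all 3 of its probes were below 0, down to -0.71. BBS9 had 1.57 and 1.70, a difference of -0.13, with -0.29 at its other probe. These 3 genes were on the low side, and the values read for BBS4 and BBS9 lie within the spread of 0.33 between spots.

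BBS5, which binds phosphoinositides, had 1.58 and 0.90, a difference of 0.69, but its other probe gave 0.02. BBS7 had 1.66 and 1.001, a difference of 0.65 from 1 probe. On the array, 4 of the 6 spots next to that of BBS7 were past 1.5 and the 18 nearest spots had a median of 1.41, and the part of this place in the value was not tested. The median of the 5 BBSome genes was -0.13. BBS10 and BBS12, which help to fold and assemble the BBSome, had differences of 0.17 and 0.09, and their other probes gave -0.18 and -0.51. BBS10 was dim, with -5.02 in crossbred and -5.19 in Zebu testis, near the lowest levels well above background. Its 2 probes share 40 bases. With the mean of all probes, the median of BBS10 and BBS12 turned to -0.11 and that of all 7 BBS genes from 0.09 to -0.21.

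**Figure D3:**
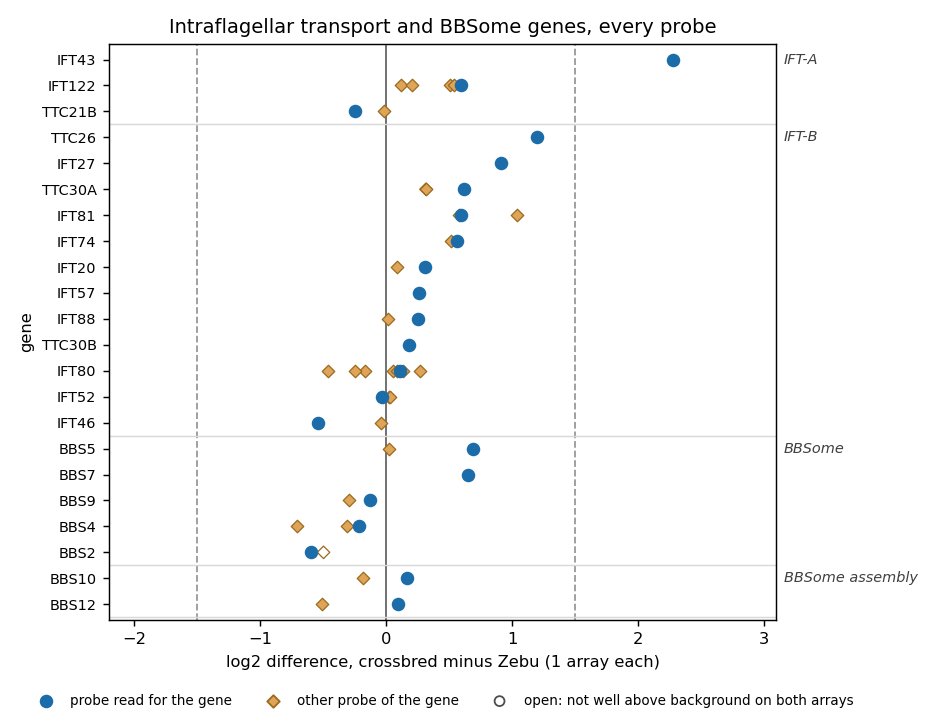
Log2 difference, crossbred minus Zebu (horizontal axis), at every probe of the 22 intraflagellar transport and BBSome genes, grouped by complex, with a circle for the probe read for the gene, a diamond for each other probe, open symbols for probes not well above the background of both arrays and dashed lines at 1.5 either way. IFT43 alone lies past a line, at 2.28, the IFT52 probes fall together near 0, and the 8 probes of IFT80 lie between -0.46 and 0.27.

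Further genes of the trains, the cilium base and the centrosome, under other names, mostly lay above 0 and within the threshold. A list of 89 such genes covered further subunits of the trains, motors, BBSome partners, transition zone, centriole assembly and pericentriolar material. Of these, 77 were on the array, and their median was 0.24. The 7 BBSome partners had a median of -0.24, with 3 above 0 and 4 below. The 6 genes listed as further train subunits had a median of 0.12, with 4 above 0 and a range from -0.64 to 0.60. The lowest was TULP3, which binds IFT-A and is not itself a subunit. Its 2 other probes had a median of 1.25, against -0.64 at the probe that was read. Of the 77 genes, 0 were higher and 1 was lower, where 7.11% of all detected names were higher and 2.92% lower. The lower one was WDR34, an intermediate chain of the dynein that drives IFT-A, with 2.54 in crossbred and 4.69 in Zebu testis, a difference of -2.15 from 1 probe. The other motor genes mostly lay on the high side, and 7 of the 9 motor genes were above 0. Among them the kinesin gene KIF3A had 3.01 and 1.79, a difference of 1.22, and the kinesin gene KIF17 had 1.59 and 0.38, a difference of 1.20.

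CEP genes of the centriole and the material around it had a median of 0.45 over 17 genes, 14 of them above 0. CEP57, which organises the pericentriolar material and helps to keep centrioles paired, had 2.16 in crossbred and 0.60 in Zebu testis, a difference of 1.56, or 2.96-fold, from 1 spot. This is just past the threshold. CEP350, which anchors microtubules at the centrosome, fell short of it and had 3.24 and 1.89, a difference of 1.35, but its 3 other probes gave 0.83, 0.38 and 0.23. CEP350 thus had a large difference on 1 of its 4 probes.

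CEP85L, a pericentriolar protein, was the most even of the genes with at least 3 probes. It had 2.04 and 0.84, a difference of 1.19, and its 3 probes ranged from 1.14 to 1.19. CEP76, which limits centriole reduplication, had 2.96 and 1.72, a difference of 1.24, and 0.54 at a probe that shares 31 of its bases. CEP44 and the midbody gene CEP55, which acts at the end of cell division, were even and small. CEP44 had 2.87 and 2.60, a difference of 0.27 with probes from 0.08 to 0.30, and CEP55 had -0.39 and -0.58, a difference of 0.19 with probes from 0.19 to 0.38. CEP135, a scaffold of the centriole cartwheel, had -0.62 and -0.39, a difference of -0.22, while its other probes gave 0.14 and 1.18.

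At the base of the cilium, CEP170, a protein of the subdistal appendages of the mother centriole, was past the threshold on 1 of its probes. The probe that was read had 1.82 in crossbred and -0.10 in Zebu testis, a difference of 1.93, or 3.81-fold. The second CEP170 probe, which starts at base 6776 of the transcript where the first starts at 5027, had -0.22 and -0.29, a difference of 0.07 over 2 spots. A further name on the array, which stands for the same transcript and currently has the symbol CEP170, had a difference of 0.13. The difference of CEP170 was therefore seen at 1 of these 3 readings of its transcript.

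CEP41, a protein of tubulin modification in cilia, had 1.92 and 0.51, a difference of 1.41 from 1 probe. CEP19, which recruits IFT-B to the ciliary base, had -2.45 and -1.76, a difference of -0.68, the lowest of the CEP genes at the probe read for each. The 6 genes of the ciliary base had a median of 0.51. CEP112 had -0.26 and -0.29 at the probe that was read, a difference of 0.04, while its dimmer probes had differences of 1.72 and 1.38. At the probe past the threshold CEP112 had -3.59 in crossbred and -5.31 in Zebu testis.

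**Figure D4:**
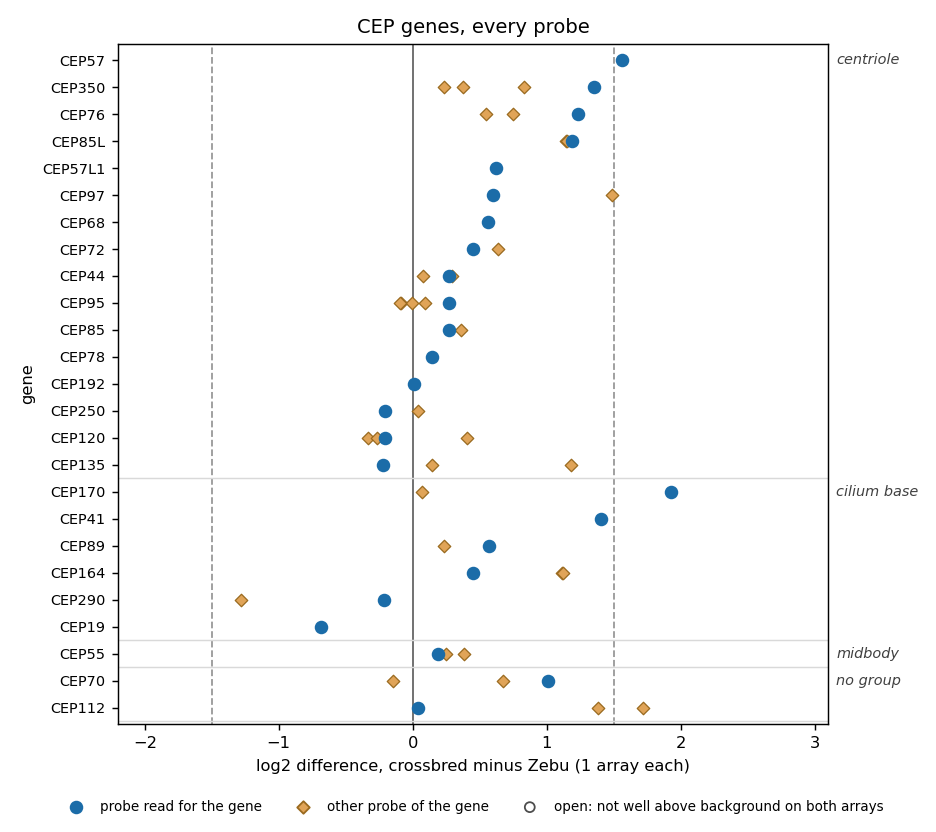
Log2 difference, crossbred minus Zebu (horizontal axis), at every probe of 25 of the 26 CEP genes, grouped by place of action, with a circle for the probe read for the gene, a diamond for each other probe and dashed lines at 1.5 either way. The read probes of CEP57 and CEP170 lie past the upper line, the probes of CEP85L fall together near 1.15, and those of CEP112, CEP135 and CEP170 are spread by more than 1.

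The 8 TTC genes listed with the axoneme or the sperm tail lay on 1 side. This list was drawn from general knowledge with earlier results of these data known, so their shared side is no independent evidence. Of them, 7 were measured on both arrays, all 7 were above 0, none passed the threshold and the median was 0.88. That median is the value of TTC23, whose place in this list is uncertain. TTC16 and TTC23L had differences of 1.08 and 0.42. TTC12, which acts in the assembly of dynein arms, had 1.05 in crossbred and -0.36 in Zebu testis, a difference of 1.41. TTC25, part of the docking complex of the outer dynein arm, had 3.48 and 2.26, a difference of 1.22. TTC18, or CFAP70, another protein of the outer dynein arm, had 4.01 and 3.60, a difference of 0.41. TTC6, measured on the crossbred array alone, was at least 1.48-fold higher there.

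TTC29, an axonemal protein needed for sperm motility, had 0.59 and -0.23, a difference of 0.82. Its second probe had -0.12 and -2.51, a difference of 2.40, and its spot lies in the bright patch of the crossbred array, in row 157 and column 56, where the spots had a median difference of 1.29. Of the 6 spots next to it, 3 were past 1.5. Its value cannot be told apart from that place, and the first probe lies outside it. The only other member spot in a marked patch belongs to IFT20, in the dark patch, where the spots had a median difference of -1.37. That spot gave -0.14, and the IFT20 probe that was read lies elsewhere.

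The other 26 TTC genes were divided, with 12 above 0 and 12 below among the 24 measured on both arrays and a median of -0.04, which is that of the array and became 0.15 with the mean of all probes. This group nevertheless held the largest difference of the 82 genes. TTC7A, a scaffold of the complex that holds a phosphatidylinositol 4-kinase at the plasma membrane, had 1.52 in crossbred and -1.24 in Zebu testis, a difference of 2.76, or 6.76-fold, from 1 spot. TTC39B, which lowers the sterol receptor LXR, had 0.61 and -1.03, a difference of 1.64, or 3.12-fold, also from 1 spot. A further name with the current symbol TTC39B had 1.28 and -0.14, a difference of 1.42. The study lists TTC7A, TTC39B and CEP57 among its genes from these same arrays, so their place here is no independent evidence. TTC33, with 1.95 and 0.60, fell just short of the threshold at 1.35, and its other probe gave -0.45.

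On the low side, TTC14 had -1.35 in crossbred and -0.33 in Zebu testis, a difference of -1.02. All 4 TTC14 probes were below 0, from -1.71 to -0.41, and the lowest of them, with -3.65 and -1.95, was the 1 member probe past the threshold downward. TTC39C had -0.47 and 0.53, a difference of -1.004 from 1 spot. This spot, in row 100 and column 41, lies directly below the dark patch of the crossbred array, which ends at row 99. Of its 18 nearest spots 8 were measured, with a median of -0.39, and the part of its place in the value was not tested. TTC36 had -1.81 and -0.84, a difference of -0.97, and -0.74 at its other probe measured on both arrays. The direction of TTC14 and TTC36 was thus shared by their probes measured on both arrays.

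TTC28 had -0.45 and 0.33, a difference of -0.78, but its probes measured on both arrays reached from -0.78 to 1.21. TTC22, measured on the Zebu array alone, was at least 1.97-fold lower in crossbred testis. TTC38 had -1.85 and -2.57, a difference of 0.72, and 0.52 at a second probe, whereas its remaining probe had -2.97 and -5.39, a difference of 2.42. TTC17, which is needed for actin organisation during ciliogenesis, had -2.41 and -3.23, a difference of 0.82, and its 3 probes ranged from 0.74 to 0.82. Of the named TTC genes, TTC17 was the most even over its probes, though a pair of these shares 44 bases, and TTC28 was the least even.

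**Figure D5:**
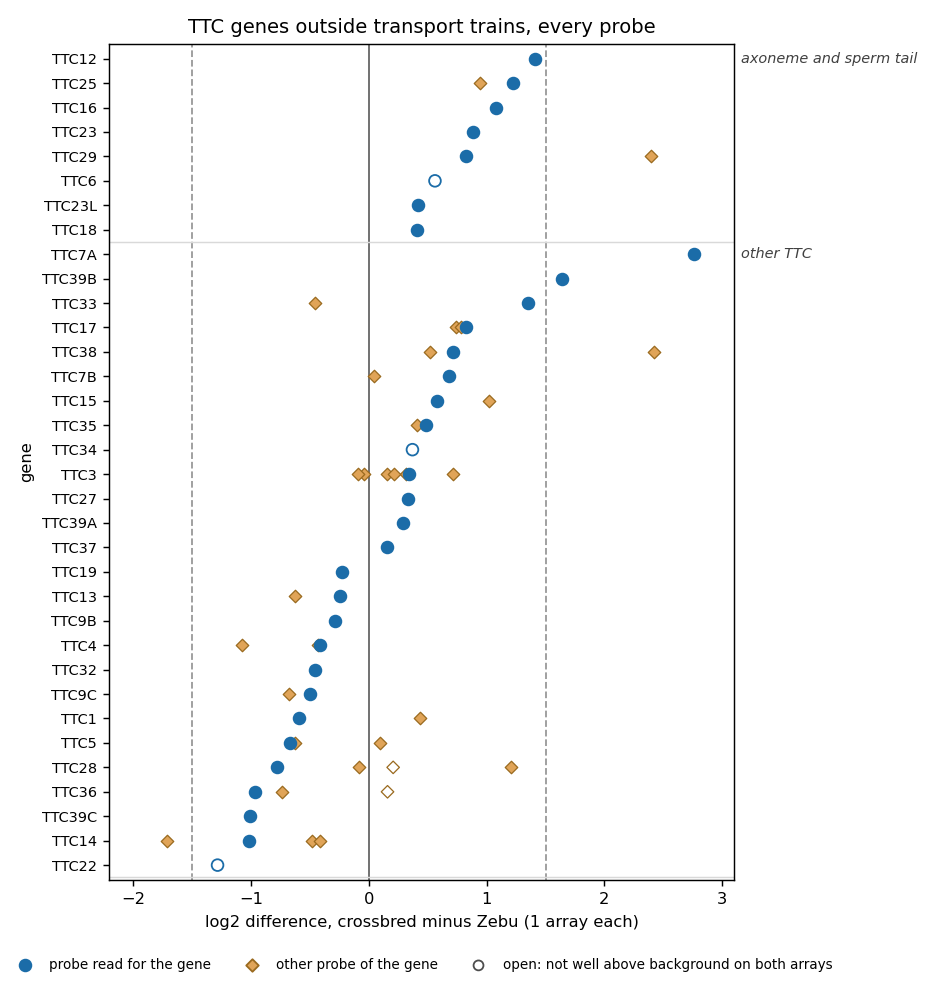
Log2 difference, crossbred minus Zebu (horizontal axis), at every probe of the 34 TTC genes that are not train subunits, with a circle for the probe read for the gene, a diamond for each other probe, open symbols for probes not well above the background of both arrays and dashed lines at 1.5 either way. The axoneme and sperm tail genes all lie to the right of 0, while the read probes of the other TTC genes spread from -1.28 at TTC22 to 2.76 at TTC7A.

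How far the probes of a gene gave the same answer could be seen for 51 genes with several probes measured on both arrays. In 37 of them every probe had the same sign, 27 above 0 and 10 below, and in 14 the signs were mixed. The range between the probes of a gene had a median of 0.47, was over 1 in 12 genes and was under the spot SD of 0.33 in 19. Counted by probe, 8 of 172 detected member probes were higher and 1 was lower, where 6.14% of all probes were higher and 2.99% lower, and the median of the member probes was 0.25 against -0.06 for the other probes. The 3 probes added to the higher ones by this count were those of TTC38, TTC29 and CEP112 described above. Of the 15 further names whose current symbol is of this kind, 1 was higher, where 7.11% of all detected names were. It was that of CEP295NL, with 4.15 in crossbred and 2.47 in Zebu testis, a difference of 1.68.

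Markers of testis cell types differed between the same arrays. The marker lists were chosen with earlier results of these data known. Some spermatid markers are also among the genes that the study lists as upregulated from these same arrays. The following shares are therefore a description and no independent evidence. All 12 spermatid markers were above 0 and 7 of them were higher, against 7.11% of all detected names. The spermatid markers had a median of 1.67 and a range from 0.36 to 2.77. Their summed signal, in units of the 75th percentile of the array, was 689 in crossbred and 348 in Zebu testis. All 7 spermatocyte markers measured were above 0 as well, with a median of 0.39 and summed signals of 40.0 and 31.4. Markers of spermatogonia had a median of -0.62 and summed signals of 36.8 and 50.9. Markers of Leydig cells had a median of -0.81 (sums 105 and 160), those of Sertoli cells -0.99 (154 and 240) and those of peritubular cells -0.77 (41.1 and 68.3).

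Thus the spermatid markers lay above 0, as most members did, and those of Leydig and peritubular cells below it. Endothelial and macrophage markers had medians of 0.08 and 0.38. Of the 5 markers of ciliated epithelium on the array, TP73 was not above background on either array, and the other 4 had differences from -0.70 to 0.82. The summed signals of this list were 2.65 and 2.17, and KRT8 and KRT18 made up most of them. FOXJ1 was dim, with -4.64 in crossbred and -5.27 in Zebu testis. The part of the cell types in the differences of the members was not tested.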

How the data were processed

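Total RNA of testis, pooled by group, had been labelled with Cy3 and hybridized to Agilent bovine arrays by the authors, and the images were read with Agilent Feature Extraction 11.5.1.1, per the file headers. The deposited intensity of each spot was background-subtracted and detrended within its array and had no normalization between arrays. The mean spot intensity and the local background intensity were deposited as read. The authors also deposited log2 values after a shift by the 75th percentile, whose column medians were -3.00 and -3.01. They correlated with the values used here at 0.9994 and 0.9998, so their log2 scale, centring and direction were known.

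Control spots and 13 outlier spots were left out, none of them of a member, and no spot was saturated. Spots of 1 probe were averaged as log2 signals, from which the 75th percentile of the non-control spots was taken away. The probe with the brightest average stood for a gene, which was detected if at least 1 array read it well above background. Where the dimmer array was not, a bound was taken against the higher of its own value and the lowest value well above background on that array, -5.60 for crossbred and -5.76 for Zebu. With 1 array per group there is no test and no replicate, the number of arrays limits the precision, and depth is not a quantity of these data.

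Genes were named by rule: subunits of IFT-A, IFT-B and the BBSome, members past 1.5, the 5 largest rises and falls, members with a spot in a marked patch (rows 54 to 99 with columns 35 to 46, dark, and rows 153 to 167 with columns 50 to 56, bright), 3 genes the study lists, genes of the pathway lists past 1.5, and the 5 widest and 5 narrowest probe ranges among genes with at least 3 probes. CEP350, CEP41, CEP76, BBS10, BBS12, TTC12, TTC16, TTC23, TTC23L, TTC25, TTC18, TTC33, CEP295NL, KIF3A, KIF17, TULP3, FOXJ1, KRT8, KRT18 and TP73 were named after their values were seen, as were TTC6, TTC22 and TTC34 for being dim. The members, gene lists and marker lists were chosen with earlier results of these data known. Some role lists, above all that of the axoneme, rest on general knowledge of the proteins.

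Of the 82 names, 74 are current symbols in the RefSeq gene table of ARS-UCD2.0, 6 are older names of a current symbol and 2 had no match, and 15 further names of the array have a current symbol of this kind and were not counted as members. Probe sequences were compared with BLAST 2.17.0. The values were recomputed after normexp correction (offset 50), after quantile normalization, with the median or a 75th percentile of well measured probes as the shift, from the log2 values of the authors, with all probes of a gene averaged or each counted, with other filters and thresholds, and without the patches. Leaving out spots beside others that moved, and probes similar to other names, was added after seeing the data. The steps were tested on simulated data. Python 3.11.15 with numpy 2.4.6, pandas 2.3.3, scipy 1.17.1 and matplotlib 3.10.9, as well as limma 3.58.1 in R 4.3.3, did the computing. The real-time PCR of the study was not used here, and some items are not reported here.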

Additional observations from a re-analysis of the deposited data

How the results depend on the processing

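The median of the members stayed between 0.25 and 0.36 under the alternatives, and stood 0.31 to 0.39 above that of all names in each. The 5 higher members were 4 with normexp background correction, where TTC39B had 1.49, and 5 under every other alternative at the same threshold read by gene. With the mean of all probes CEP170 had 1.0003 and TTC29, with its probe in the bright patch, had 1.61. At a threshold of 1 there were 16 higher and 3 lower members, and at 2 there were 2 higher. At a linear fold of 1.5 there were 29 higher and 9 lower. Among genes measured on both arrays, 79.7% of members and 88.0% of other names lay at or below 1. At or below 2 lay 97.5% and 97.2%. At or below 0.6, close to that linear fold, lay 65.8% and 79.9%, and at or below -0.6 lay 8.86% and 19.8%. Over every probe 8 member probes were higher and 1 was lower, where 6.14% and 2.99% of all probes were. The medians of the families and role groups moved by less than the spot SD throughout, but some near 0 changed sign. With the mean of all probes and over every probe these were the BBS family (-0.21 and -0.18), the BBSome assembly genes (-0.11 and -0.04) and the TTC genes outside axoneme and trains (0.15 and 0.05), the last of which also came to 0.0008 with normexp. Among the named genes, the mean of all probes also moved BBS5, CEP112, CEP135, TTC28, TTC36 and TTC38 by more than that SD, and the cause was not tested. No paired analysis was possible because each group is 1 array, and for the same reason no replicate could be left out.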
